A study of Mus musculus with 6 samples.

Results

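The Serpina1 and Serpina3 genes of the mouse encode serine protease inhibitors that hepatocytes secrete into plasma. The 8 genes described here, Serpina1a, Serpina1b, Serpina1c, Serpina1d, Serpina1e, Serpina3k, Serpina3m and Serpina3n, were taken by symbol from the deposited expression table of 20673 genes, and all 8 were found and passed the filter on low counts. The data were bulk liver RNA-seq libraries from C57BL/6J mice about 12 weeks old. 3 livers came from mice on a regular diet (RD, standard chow) and 3 from mice that had received a diet rich in cholesterol (HCD) for 3 days. The HCD also contained cocoa butter, more fat than the RD and sodium cholate, a bile acid salt that aids cholesterol uptake, so that the HCD livers differ from the RD livers by all of these components at once and the component behind a difference cannot be told apart. No infection or surgery preceded the libraries by their labels. The study used mice of both sexes, but which sex each liver came from is stated nowhere in the labels or methods.

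A serpin works as a bait. An exposed reactive centre loop is cut by the target protease, which is then trapped in a covalent complex with the inhibitor. Serpina1 encodes alpha-1 antitrypsin, the main plasma inhibitor of neutrophil elastase, and humans carry 1 such gene where the mouse carries several near-identical copies. Serpina3 genes are the mouse relatives of human alpha-1 antichymotrypsin, an inhibitor of chymotrypsin-like proteases, and they too were multiplied in rodents. Serpina3n is an acute phase gene that inhibits granzyme B and leukocyte elastase, Serpina3k is an abundant hepatic serpin that binds kallikrein, and Serpina3m is a close relative of Serpina3k whose targets are less well described.

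The copies differ most where the bait is encoded. All 8 genes lie on chromosome 12, the Serpina1 copies on the minus strand and the Serpina3 copies on the plus strand. In an alignment of the coding sequences of the 5 Serpina1 copies, 86 of 1239 columns without a gap differed (6.94%), and the 60-base window with the most differences held 18 variable columns (30%). That window was chosen for its differences and lies in the last exon of each copy, in the stretch that encodes the reactive centre loop. It is shown 5′ to 3′ on the coding strand, with capitals at the positions that differ between the copies.
Serpina1a: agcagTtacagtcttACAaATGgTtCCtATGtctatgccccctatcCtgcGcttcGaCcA
Serpina1b: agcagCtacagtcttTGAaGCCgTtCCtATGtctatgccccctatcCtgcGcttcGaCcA
Serpina1c: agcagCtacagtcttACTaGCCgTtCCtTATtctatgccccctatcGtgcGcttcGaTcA
Serpina1d: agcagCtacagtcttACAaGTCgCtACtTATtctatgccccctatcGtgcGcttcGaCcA
Serpina1e: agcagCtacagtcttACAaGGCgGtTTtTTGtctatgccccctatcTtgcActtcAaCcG
The positions in GRCm38 were chr12:103853757-103853816 for Serpina1a, chr12:103728324-103728383 for Serpina1b, chr12:103895094-103895153 for Serpina1c, chr12:103763762-103763821 for Serpina1d and chr12:103947100-103947159 for Serpina1e, all on the minus strand. Serpina1e carried 8 letters that no other copy had at that place, and each of the other 4 copies carried 2 or 3.

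The same search in the 3 Serpina3 copies gave a 60-column window in which 35 of 54 columns without a gap differed (64.8%), beside 243 of 1248 such columns (19.5%) over the coding alignment. It also lies in the last exon, and Serpina3k has 54 bases there, fewer than the other copies. Capitals again mark the positions that differ or are missing in a copy.
Serpina3k: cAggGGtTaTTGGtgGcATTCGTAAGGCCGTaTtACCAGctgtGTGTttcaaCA
Serpina3m: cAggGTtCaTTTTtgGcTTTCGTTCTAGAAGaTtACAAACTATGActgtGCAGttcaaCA
Serpina3n: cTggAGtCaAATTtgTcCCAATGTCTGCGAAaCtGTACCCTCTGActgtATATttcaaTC
The positions were chr12:104345291-104345344 for Serpina3k, chr12:104393791-104393850 for Serpina3m and chr12:104413470-104413529 for Serpina3n in GRCm38, all on the plus strand.

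Reads can be shared between copies, and this limits what a count of 1 copy means. Coding sequences of the Serpina1 copies were 91.4% to 96.7% identical. Serpina3k and Serpina3m were 91.1% identical, whereas Serpina3n was 82.7% and 85.2% identical to them. Of all 100-base windows in the reference transcripts of a gene, 58.5% of those of Serpina1c and 49.9% of those of Serpina1a also occurred in a transcript of another gene. The share was 29.3% for Serpina1d, 20.6% for Serpina1b and 14.8% for Serpina1e. It was 6.09% for Serpina3m, 4.85% for Serpina3k and 0.204% for Serpina3n. A read of this length from such a window cannot be assigned to 1 copy, and neither the read length nor the handling of such reads is stated in the labels or methods. Serpina1c and Serpina1a are therefore the least certain members, and Serpina1e and the Serpina3 copies the most separable.

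**Figure D1:**
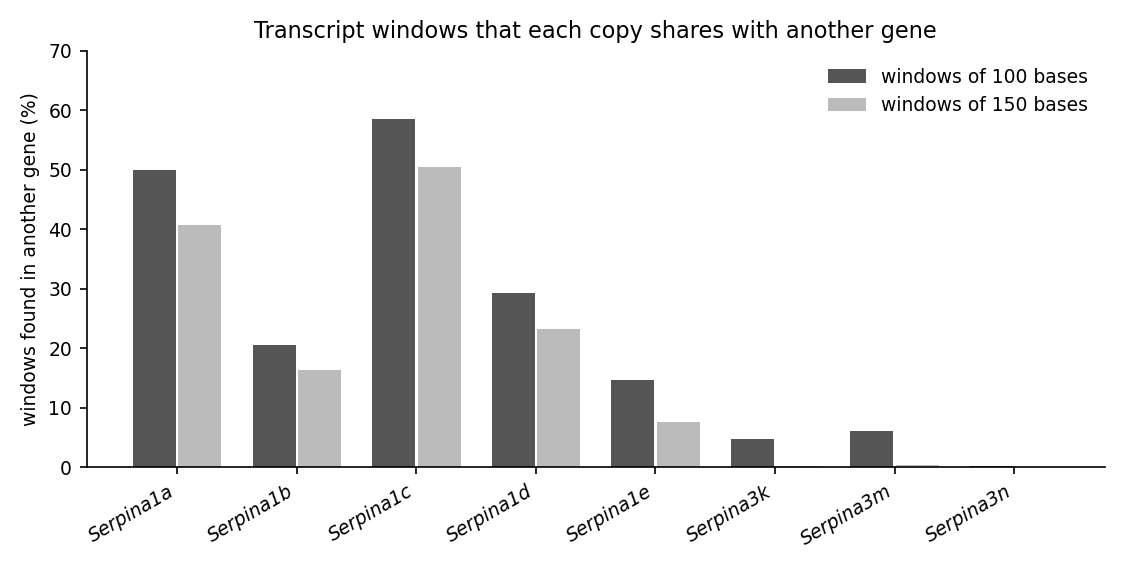
Share of the windows of 100 (dark) and 150 bases (light) in the reference transcripts of each copy that also occur in a transcript of another gene, in percent. Serpina1c (58.5% and 50.5%) and Serpina1a (49.9% and 40.7%) share the most, and Serpina3n (0.204% and 0%) the least.

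Gene models overlapped as well. The Serpina1b model spans Serpina1d and the unprocessed pseudogene Gm8893, which shares windows with all 5 Serpina1 copies and had 361 to 1792 counts per liver. Serpina1c overlaps the antisense gene B430119L08Rik over 429 exon bases, and that gene had 18 to 201 counts per liver. Whether counting used strand is not given, and without it reads of the antisense gene cannot be told apart from reads of Serpina1c. The Serpina3m model spans Serpina3k, and the pair has 60 exon bases in common.

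The livers held 13771630 to 23129576 counts over genes. Hepatocyte markers were present in every liver, and albumin (Alb) had 63316 to 105649 CPM (counts scaled to a common library size with TMM, a factor that corrects for library composition). Summed over each marker list, Kupffer cell markers had 111 to 193 CPM in RD and 154 to 361 CPM in HCD livers. In the same order, stellate cell markers had 218 to 222 and 219 to 362 CPM. Sinusoidal endothelial markers had 118 to 200 and 150 to 245 CPM. Cholangiocyte markers had 37.4 to 91.9 and 64.6 to 98.1 CPM, and neutrophil markers 2.1 to 3.1 and 2.8 to 4.5 CPM. None of the 28 cell type markers tested outside the hepatocyte list was called, and the 1 exocrine pancreas marker in the table, Cela2a, had 3 to 13 counts. In bulk liver, fewer cells of a type and less RNA per cell cannot be told apart.

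1 liver stood apart, HCD replicate 1. It held 5032 counts of Xist, the RNA that coats the inactive X chromosome, where the other 5 livers held 0, and it held 0 counts of the Y-linked genes Ddx3y, Eif2s3y, Kdm5d and Uty. The 10 male-biased liver genes examined summed to 1598 CPM there, 12659.9 to 17151 CPM in the RD livers, and 20892 and 19641 CPM in HCD replicates 2 and 3. The 10 female-biased liver genes summed to 1277 CPM there and to 0.5 to 10.1 CPM in the other livers. Ddx3y had 426 to 1229 counts in the other 5 livers. By these genes HCD replicate 1 has the pattern of a female liver and the other 5 that of male livers. The labels give no sex. With all 6 livers the diets therefore also differ in sex by this pattern, and the part of sex was not tested. The results of the members are given with and without HCD replicate 1. The libraries of the diets also carry different naming schemes in the labels, and whether they were prepared together is not given, so that a preparation difference and the diet cannot be told apart.

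In RD livers Serpina1e was the most abundant of the 8 genes and among the top 5 of all genes in the table. Levels are compared between genes as FPKM, deposited values scaled by gene length and library size. Serpina1e ranked 4, 5 and 3 among 20673 genes in RD replicates 1 to 3, but 2237, 18 and 36 in HCD replicates 1 to 3. The order by mean FPKM over 6 livers was Serpina1e (9537), Serpina3k (7551), Serpina1b (3600), Serpina1d (2788), Serpina1a (2003), Serpina1c (1558), Serpina3n (296) and Serpina3m (237). The order held in every RD liver. Serpina1e was above Serpina3k in the 3 RD livers and below it in the 3 HCD livers, Serpina3n was above Serpina3m in 4 of 6 livers, and Serpina1b was above Serpina1d, Serpina1d above Serpina1a, and Serpina1c above Serpina3n in all 6. Serpina3k against Serpina1b and Serpina1a against Serpina1c kept their order in 5 of 6 livers.

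**Figure D2:**
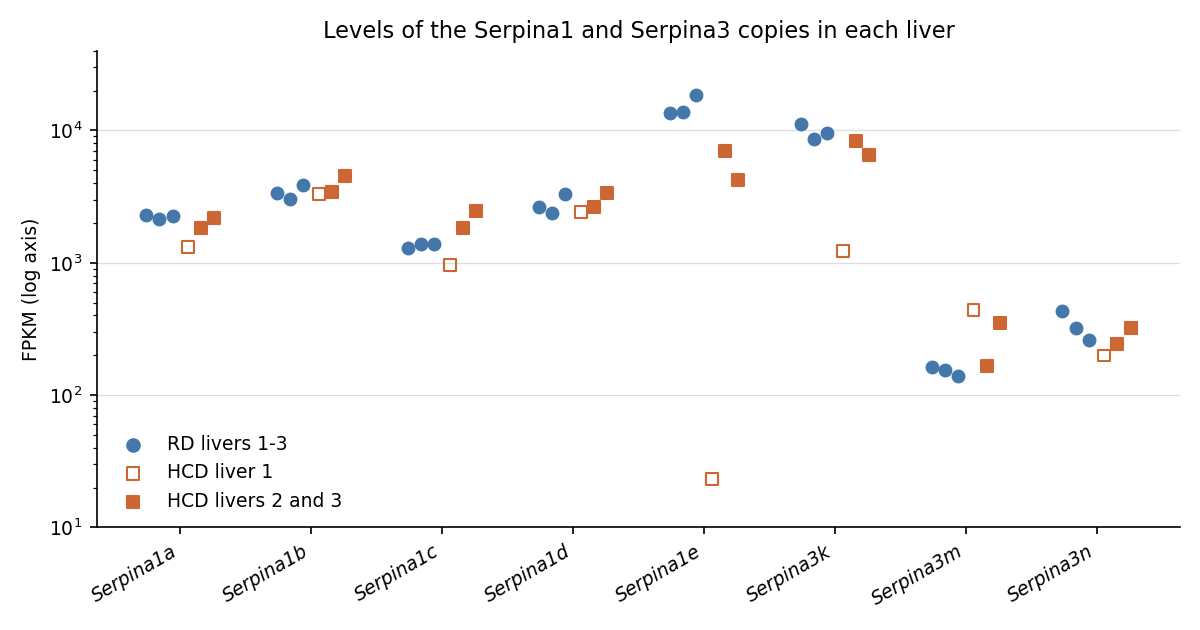
FPKM of each copy in each liver on a log axis, with RD livers as circles, HCD livers 2 and 3 as filled squares and HCD liver 1 as an open square. Serpina1e spans 23.1 FPKM in HCD liver 1 to 18551 FPKM in RD liver 3, while Serpina1b stays between 3057 and 4555 FPKM.

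The comparison of the diets asks how 3 days of HCD moved hepatic transcripts. With all 6 livers, 0 of the 8 members passed an adjusted p of 0.05 in the quasi-likelihood test of edgeR (Benjamini-Hochberg over all genes), in which 3.27% of the 13105 genes tested did (428 genes, 1.95% called higher and 1.32% called lower). 1 member had an unadjusted p of 0.05 or less, Serpina3m, beside 20.9% of all genes tested, and DESeq2 called the same member, beside 8.53% of all genes. The members' median log2 fold change (HCD over RD) was -0.18, and that of all genes tested was 0.0074. Without HCD replicate 1 the members' median was -0.035, 1 member was called, Serpina1e, and 2.61% of all genes tested were called. CPM of the diets did not overlap for 4 of 8 members, where 27.6% of all genes tested did not overlap. HCD was below RD for Serpina1a, Serpina1e and Serpina3k, as for 13.7% of all genes, and above RD for Serpina3m, as for 14% of all genes. Without HCD replicate 1 this number was 5 of 8, Serpina1c being added with HCD above RD, where 38.7% of all genes did not overlap.

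Serpina1e had 15177, 15634 and 20068 CPM in RD replicates 1 to 3. In HCD replicates 1 to 3 it had 24.8, 7756 and 4520 CPM. All 3 HCD livers were below the lowest RD liver, and HCD replicate 1 was far below the rest, with 490 counts where the others had 55762 to 462212. These are 0.146%, 45.7% and 26.6% of the RD mean. The log2 fold change was -2.05 (SE 1.26, n = 3 per diet) and was not called (edgeR adjusted p = 0.391). Without HCD replicate 1 Serpina1e was called lower, with a log2 fold change of -1.47 (SE 0.27, edgeR adjusted p = 0.0406), that is 2.76-fold lower in the 2 remaining HCD livers. The log2 fold change of Serpina1e was -2.90 without HCD replicate 2 (adjusted p = 0.315). Over all alternatives the adjusted p ran from 0.0406 to 0.550. In the edgeR test with HCD replicate 1 left out, the 10 male-biased genes had a median log2 fold change of -0.39. Cyp7b1 (-1.07) and Nudt7 (-1.60), 2 of the 10, were called lower there, beside 1.03% of all genes tested. With all 6 livers the median of the 10 male-biased genes was -0.98 and none of them was called. Their part in the Serpina1e result was not tested. With limma-trend on log2(FPKM + 1), which averages log values of single livers, the Serpina1e value from all 6 livers was -4.10 and was not called (adjusted p = 0.284).

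Serpina3k, the most abundant Serpina3 copy, had 15686, 12408 and 13137 CPM in RD replicates 1 to 3. In the HCD livers it had 1666, 11829 and 8888 CPM. The diets did not overlap, but HCD replicate 2 lay just under the lowest RD liver and HCD replicate 1 was again the lowest, at 12.1% of the RD mean. The log2 fold change was -0.88 (SE 0.57, edgeR adjusted p = 0.414). It was -0.41 without HCD replicate 1 (SE 0.21, adjusted p = 0.314) and -1.38 without HCD replicate 2 (adjusted p = 0.242).

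Serpina3m had its higher values in the HCD livers. It had 194, 186 and 162 CPM in RD replicates 1 to 3 and 504, 196 and 404 CPM in HCD replicates 1 to 3. HCD replicate 1 was the highest and HCD replicate 2 only just above the highest RD liver. The log2 fold change was 1.03 (SE 0.30, edgeR adjusted p = 0.108). It was called by DESeq2 (adjusted p = 0.00629), by edgeR without the filter on low counts (adjusted p = 0.0460, with 3.14% of all genes called) and by edgeR without HCD replicate 2 (log2 fold change 1.33, adjusted p = 0.0217, with 2.95% called). Without HCD replicate 1 it was 0.73 (SE 0.27, adjusted p = 0.188), and over all alternatives the adjusted p ran from 0.00629 to 0.291.

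Serpina3n, the acute phase member, had 610, 464 and 361 CPM in RD livers and 273, 345 and 444 CPM in HCD livers. The diets overlapped, since HCD replicate 3 lay within the RD range. The log2 fold change was -0.43 (SE 0.24, edgeR adjusted p = 0.347), and it ran from -0.64 (without HCD replicate 3) to -0.22 (without RD replicate 1) when 1 liver was left out, with -0.28 without HCD replicate 1.

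The other 4 Serpina1 copies stayed closer to their RD levels. Serpina1b had 5638, 5146 and 6248 CPM in RD and 5321, 5682 and 7336 CPM in HCD replicates 1 to 3, with a log2 fold change of 0.11 (SE 0.20, edgeR adjusted p = 0.799). Serpina1d had 2522, 2301 and 3096 CPM in RD and 2238, 2525 and 3130 CPM in HCD livers, with a log2 fold change of -0.0049 (SE 0.20, adjusted p = 0.990). The values without HCD replicate 1 were 0.20 for Serpina1b and 0.099 for Serpina1d. Both ranges overlapped between the diets, and the sign of the Serpina1d value changed with the unit and with the livers used.

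Serpina1a had 2883, 2734 and 2768 CPM in RD livers and 1608, 2317 and 2656 CPM in HCD livers. The RD livers were tightly grouped (coefficient of variation 2.79%), and all 3 HCD livers were below them, HCD replicate 3 narrowly so. The log2 fold change was -0.35 (SE 0.21, edgeR adjusted p = 0.382), and it ran from -0.52 to -0.17 when 1 liver was left out, -0.17 being without HCD replicate 1. Serpina1c had 1214, 1310 and 1273 CPM in RD livers and 870, 1720 and 2251 CPM in HCD livers, so that HCD replicate 1 was below and HCD replicates 2 and 3 above all RD livers. Its log2 fold change was 0.35 (SE 0.31, adjusted p = 0.551), 0.65 (SE 0.17, adjusted p = 0.0850) without HCD replicate 1 and 0.028 (adjusted p = 0.970) without HCD replicate 3. These copies are the ones that share the most windows with other genes.

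**Figure D3:**
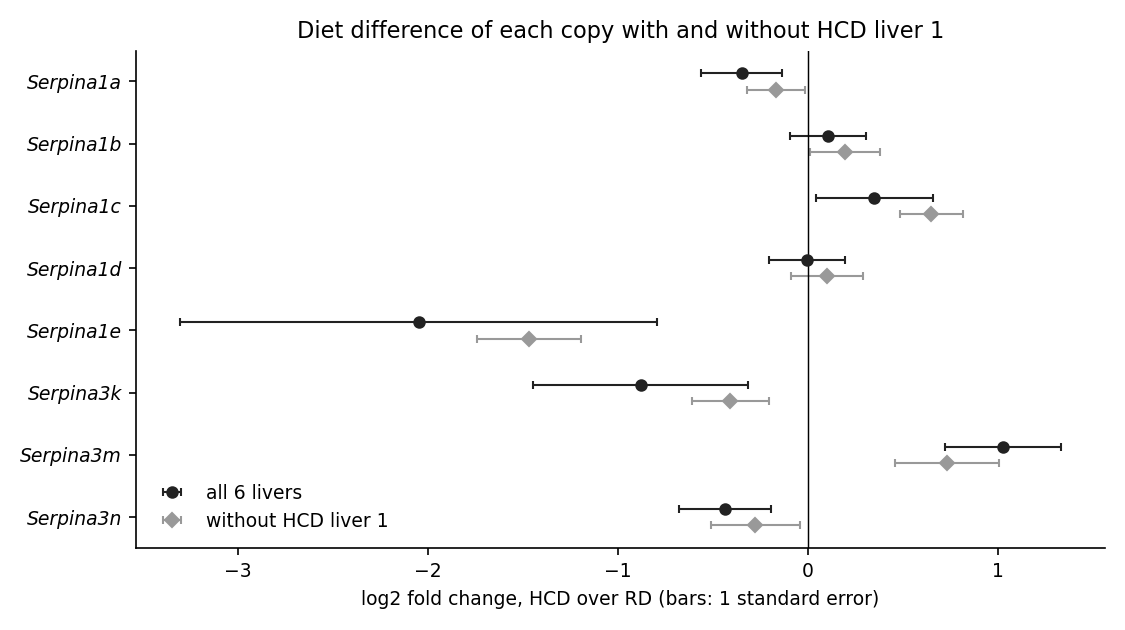
Log2 fold change (HCD over RD) of each copy from edgeR with all 6 livers (black circles) and without HCD liver 1 (grey diamonds), with bars of 1 standard error. The Serpina1e value moves from -2.05 to -1.47 and its standard error from 1.26 to 0.27, and the Serpina3k value moves from -0.88 to -0.41.

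Sums over the copies do not change when reads are moved between copies of a family, but reads that were dropped or given to Gm8893 are missing from them. The 5 Serpina1 copies summed to 27435, 27126 and 33454 CPM in RD replicates 1 to 3 and to 10061, 20001 and 19893 CPM in the HCD livers. This was 2.82% to 3.33% of all counts in RD and 1.07% to 1.96% in HCD livers, and every HCD liver was below every RD liver. The log2 ratio of the diet means was -0.82, and -0.56 without HCD replicate 1. Without Serpina1e, the other 4 copies summed to 12378 ± 953 CPM in RD and 12551 ± 2681 CPM in HCD livers (mean ± SD, n = 3), and the diets overlapped. The difference in the Serpina1 sum therefore lay in the counts of Serpina1e.

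The 3 Serpina3 copies summed to 16491, 13058 and 13660.2 CPM in RD and to 2443, 12370 and 9736 CPM in HCD replicates 1 to 3. The HCD livers were again all below the RD livers, HCD replicate 2 by little. The log2 ratio of the diet means was -0.82, and -0.38 without HCD replicate 1.

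Shares of each copy in the Serpina1 counts were compared between the diets. Serpina1e held 55.3%, 57.6% and 59.99% of the Serpina1 counts in RD replicates 1 to 3 and 0.246%, 38.8% and 22.7% in HCD replicates 1 to 3. For HCD replicate 1 the Wilson 95% interval of the share was 0.225% to 0.269%, which covers counting error only. The HCD livers were all below the RD livers, by a mean of 37.1 percentage points, and by 26.9 points without HCD replicate 1. The shares of all 4 other copies were above RD in every HCD liver, for example 19.4% ± 1.01 in RD and 39.4% ± 12.4 in HCD livers for Serpina1b (SD, n = 3), a mean difference of 19.99 points. With HCD replicate 1 left out, the Serpina1b share in HCD livers was 32.6% and the difference 13.2 points. The exact two-sided permutation test over livers gave p = 0.10 for each of the 5 shares, the smallest p that 3 livers against 3 allow, and shares that sum to a fixed total are not independent.

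Among the 4 copies other than Serpina1e, the ranges of 3 copies overlapped between the diets. Serpina1b held 44.8% to 46.7% of their counts in RD and 46.4% to 53.0% in HCD livers, and Serpina1d 20.0% to 23.1% and 20.4% to 22.3%. Serpina1c held 9.51% to 11.4% in RD livers and 8.67%, 14.1% and 14.6% in HCD replicates 1 to 3, so that HCD replicates 2 and 3 lay above every RD liver. Serpina1a held 20.7% to 23.8% in RD and 16.0% to 18.9% in HCD livers, and these did not overlap (exact permutation p = 0.10, the smallest possible).

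In the Serpina3 family, Serpina3k held 95.0% to 96.2% of the counts in RD livers and 68.2%, 95.6% and 91.3% in HCD replicates 1 to 3, so that HCD replicate 2 lay within the RD range (exact permutation p = 0.30). The mean share was 10.4 percentage points below RD, and 1.98 points below without HCD replicate 1. Serpina3m held 1.18% to 1.43% in RD livers and 20.6%, 1.59% and 4.15% in the HCD livers, all above RD (exact permutation p = 0.10). Per length, Serpina3k exceeded Serpina3m 67.5-, 55.7- and 68.0-fold in RD replicates 1 to 3. In HCD replicates 1 to 3 it did so 2.76-, 50.4- and 18.4-fold, below every RD liver. These neighbours share 4.85% and 6.09% of their 100-base windows, and how such reads were counted is not given.

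**Figure D4:**
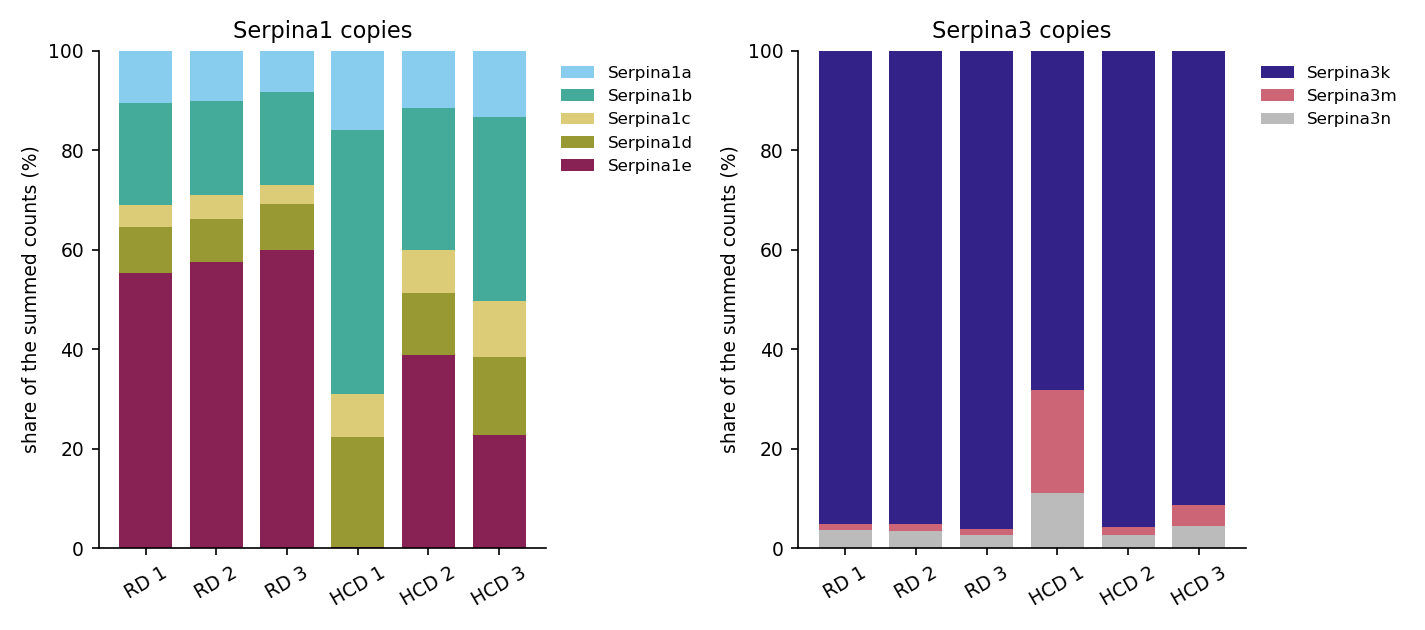
Share of the summed counts of each family held by each copy in each liver, in percent, with the Serpina1 copies on the left and the Serpina3 copies on the right. Serpina1e fills 55.3% to 59.99% of the RD bars and 0.246%, 38.8% and 22.7% of the HCD bars, and Serpina3m widens to 20.6% in HCD liver 1.

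The genes with patterns most like Serpina1e were Hsd3b5, Cyp4a12a and Selenbp2. Likeness was the root mean square difference between the log2 deviations of a gene and of the member from their means over 6 livers, among 9116 genes whose mean reached 5 CPM. It was 0.42 for Hsd3b5, a steroid dehydrogenase, 0.47 for Cyp4a12a, a fatty acid hydroxylase, and 0.58 for Selenbp2. Hsd3b5 and Cyp4a12a are in the list of male-biased liver genes, and Hsd3b5 had 4068 to 5725 counts in RD livers and 2, 2986 and 1181 counts in HCD replicates 1 to 3. For Serpina3k the nearest genes were C8a (0.14) and C9 (0.18), components of the complement membrane attack complex, and the carboxylesterase Ces3a (0.29). HCD replicate 1 was the lowest liver of all of these genes, and it deviated most from the mean in each of them. In HCD replicate 2 the log2 deviations of Cyp4a12a (1.70) and C9 (0.68) lay within their RD ranges. Those of Serpina1e (0.95) and Serpina3k (0.44) lay below RD there, as did those of Hsd3b5, Selenbp2, C8a and Ces3a.

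For the other members the nearest genes lay at 0.05 to 0.19. They were Prdm2, Prkar2a and Adar for Serpina1a, Apoo, Sephs2 and Cyfip1 for Serpina1b, Spats2, Gm10123 and Krt18 for Serpina1c, and Sephs2, Haao and Mllt1 for Serpina1d. They were Adamts7, Macrod1 and Rbm3 for Serpina3m, and Rlf, Pik3r1 and Parp9 for Serpina3n. The measure ranks genes only over these 6 livers.

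**Figure D5:**
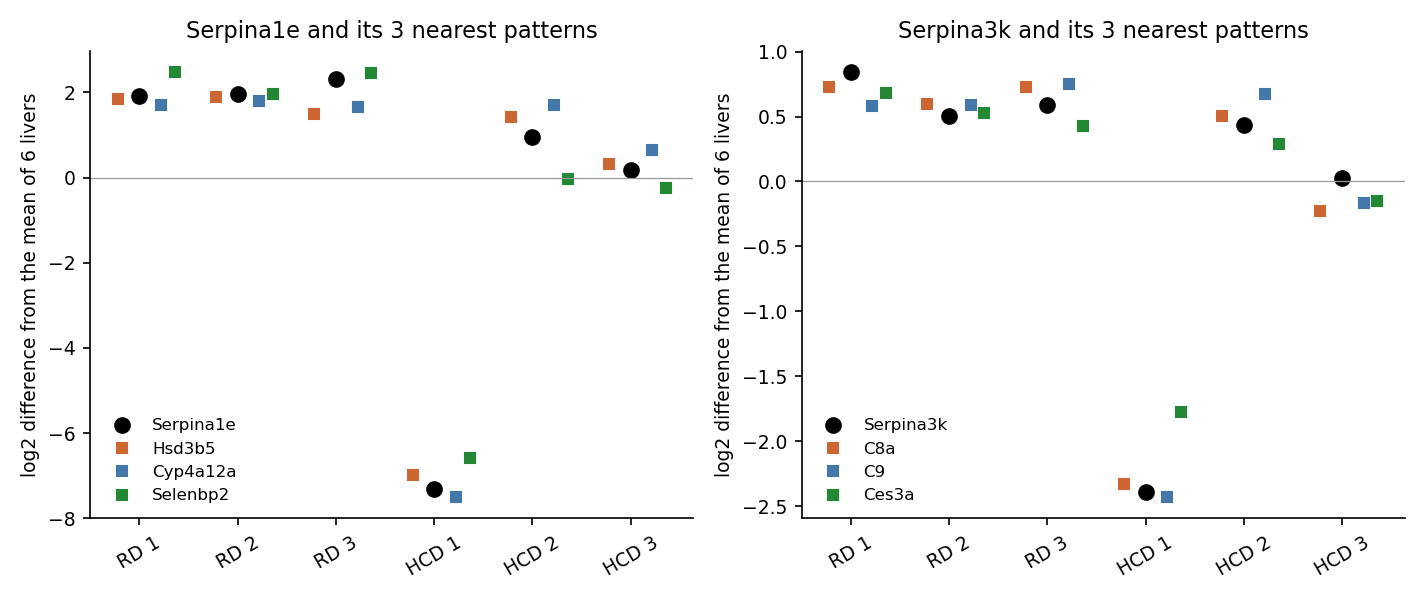
Log2 difference of each liver from the mean of 6 livers (CPM plus 0.5) for Serpina1e (left) and Serpina3k (right, black circles) and the 3 genes with the nearest patterns (coloured squares). HCD liver 1 is lowest for every gene shown, at -7.31 for Serpina1e and -2.39 for Serpina3k.

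The promoters of the Serpina1 copies were alike, whereas the levels ranged over the 6 livers from 23.1 to 18551 FPKM for Serpina1e and from 3057 to 4555 FPKM for Serpina1b. The low end for Serpina1e was HCD replicate 1, and the lowest of the other 5 livers had 4191 FPKM. Sequences from RefSeq (GRCm38.p6, 250 bases before and 50 after the annotated start) matched 6 of the 8 members, the 5 Serpina1 copies and Serpina3n. Over the bases that each pair had in common, Serpina1e was 97.6% identical to Serpina1b and 95.2% to 96.3% identical to the other copies, and the pairs among those other 4 copies were 91.4% to 94.9% identical. The Serpina1e start is annotated at another place, so that fewer bases could be set side by side (240 to 250, against 290 to 300 in the other pairs). The promoters of Serpina1b and Serpina1e are shown to set the copies with the narrower and the wider range side by side, with capitals at GTTAAT, a half-site of the hepatocyte factor HNF1.
Serpina1b: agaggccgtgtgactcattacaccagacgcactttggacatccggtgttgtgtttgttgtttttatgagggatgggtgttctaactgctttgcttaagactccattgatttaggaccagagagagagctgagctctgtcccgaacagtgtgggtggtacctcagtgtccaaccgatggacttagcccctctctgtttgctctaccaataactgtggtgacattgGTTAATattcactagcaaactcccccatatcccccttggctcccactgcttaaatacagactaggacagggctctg
Serpina1e: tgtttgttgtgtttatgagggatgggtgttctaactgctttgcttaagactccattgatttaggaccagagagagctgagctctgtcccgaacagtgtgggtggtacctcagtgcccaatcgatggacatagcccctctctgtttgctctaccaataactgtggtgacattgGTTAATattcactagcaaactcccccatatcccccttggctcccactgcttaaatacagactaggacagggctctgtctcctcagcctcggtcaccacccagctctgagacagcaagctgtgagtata
They lie at chr12:103738140-103738439 for Serpina1b and chr12:103956848-103957147 for Serpina1e on the minus strand. Searched on both strands, GTTAAT occurred once in each of the 5 Serpina1 promoters and not in that of Serpina3n, and 7.10% of 32851 promoters of this length held it. The annotated starts differ, so that the match began 26 bases before the start of Serpina1b and 78 bases before that of Serpina1e. A C/EBP pattern (TTNNGNAA) was found in the promoters of Serpina1a, Serpina1b, Serpina1d, Serpina1e and Serpina3n and in 40.7% of all promoters, and a STAT pattern (TTCNNNGAA) in none of the 6 and in 8.30% of all promoters. In these promoters no match of 1 pattern overlapped a match of another. A match is a description of the letters, not of a bound site.

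Other clade A serpins lie in the same cluster. Of 19 listed, 14 were in the table and 8 passed the filter on low counts, with a median log2 fold change of -0.43, and of -0.097 without HCD replicate 1. Serpina10, which encodes the protein Z-dependent inhibitor of coagulation factor Xa, fell by 0.95 on the log2 scale (SE 0.13, edgeR adjusted p = 0.0130), the only 1 of the 8 that was called. It had 287, 269 and 279 CPM in RD and 132, 150 and 152 CPM in HCD livers, with no overlap and little spread within a diet, and it was also called without HCD replicate 1 (log2 fold change -0.88, adjusted p = 0.0210).

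The pseudogene Serpina4-ps1 had 10379, 3941 and 2120 counts in RD livers and 0, 730 and 113 counts in HCD livers. Its log2 fold change was -3.87 (SE 1.37, edgeR adjusted p = 0.161), and the count of 0 in HCD replicate 1 allows up to 0.152 CPM. Serpina9 likewise had 56 to 117 counts in RD livers and 0, 24 and 6 counts in HCD livers (-2.69, adjusted p = 0.157). Both had all HCD livers below RD without passing the test, and without HCD replicate 1 the values were -3.27 (adjusted p = 0.0925) and -2.04 (adjusted p = 0.122).

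Serpina6, which encodes corticosteroid-binding globulin, had 111 to 243 CPM in RD and 182 to 443 CPM in HCD livers, HCD replicate 1 being the highest (0.88, adjusted p = 0.231, and 0.46 without HCD replicate 1). Serpina12, the adipokine vaspin, had 10.6 to 105 CPM in RD livers and 3.29, 44.5 and 67.8 CPM in HCD livers (-0.72, adjusted p = 0.711, and -0.17 without HCD replicate 1). Serpina11 had a value of 0.18 with overlapping diets, and of 0.43 without HCD replicate 1 (adjusted p = 0.120), where the 2 other HCD livers lay above RD. Serpina3g (0.15, and 0.027 without that liver) and Serpina3f (-0.15, and -0.020 without it) had overlapping diets. Among 14 serpins tested from other places in the genome none was called, with a median log2 fold change of 0.20, Agt (angiotensinogen) at 0.63 and Serping1 (the complement C1 inhibitor) at -0.02. These were 0.19, 0.48 and 0.14 when HCD replicate 1 was left out, so that Serping1 changed sign.

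Secreted serpins are folded, exported and, when misfolded, cleared through the endoplasmic reticulum. Of 18 genes listed for these steps, 4 were called lower, none was called higher and the median log2 fold change was -0.25, with the percentage of all genes called lower at 1.32%. The chaperones Hspa5 and Hsp90b1 fell by 1.31 (SE 0.26, edgeR adjusted p = 0.0354) and 0.97 (SE 0.17, adjusted p = 0.0258) on the log2 scale. Sel1l and Syvn1, which form the ubiquitin ligase complex of ER-associated degradation, fell by 1.00 (SE 0.17, adjusted p = 0.0258) and 1.71 (SE 0.25, adjusted p = 0.0168). Calr, the chaperone calreticulin, had a value of -0.63 (adjusted p = 0.148). All 4 calls were also made without HCD replicate 1, with a median of -0.09 for the list.

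Serpina1 and Serpina3 genes are known targets of hepatocyte factors and of interleukin 6 signalling. Of 21 listed receptors, kinases and factors upstream of them, 3 were called lower, beside 1.32% of all genes, and none higher, with a median log2 fold change of -0.36. Stat3, the transcription factor downstream of interleukin 6, fell by 1.14 on the log2 scale (SE 0.14, edgeR adjusted p = 0.00948). Il6st, the signalling chain of the interleukin 6 receptor, and Lifr, the receptor chain for leukemia inhibitory factor that pairs with it, fell by 0.71 (SE 0.15, adjusted p = 0.0454) and 1.19 (SE 0.25, adjusted p = 0.0462). Without HCD replicate 1 Stat3 was still called (adjusted p = 0.0140) while Il6st (-0.68, adjusted p = 0.0804) and Lifr (-1.09, adjusted p = 0.0865) were not, and Socs3 was then called lower (-2.40) and Cebpb higher (1.31). The hepatocyte factors Hnf4a and Cebpa had values of -0.36 (adjusted p = 0.279) and -0.19 (adjusted p = 0.576), and of -0.44 and -0.075 when that liver was left out. No test related these genes to the serpins.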

How the data were processed

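Liver RNA-seq libraries of 3 RD and 3 HCD mice were grouped by their labels. The authors deposited raw counts per gene (1 column a library) and FPKM values, which scale counts by gene length and library total. The submitters' processing notes list STAR, HTSeq, DESeq2, edgeR and GRCm39, without versions or roles. RNA was isolated with the RNeasy Kit, and the library kit, strand and read length are not given in the sources used here. Gene lengths implied by the deposited FPKM matched GENCODE M21 (GRCm38) exon unions within 0.1% for 94.85% to 94.96% of genes, and for all 8 members, so coordinates and transcripts were taken from M21. The expression table also holds the authors' own log2 fold changes and p-values for this comparison, and these deposited columns were not used. No column of another sample was present.

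Counts were tested as deposited with edgeR 4.0.16 (glmQLFit and glmQLFTest, filterByExpr by diet, TMM, Benjamini-Hochberg over 13105 genes, called at an adjusted p under 0.05), without covariates, in R 4.3.3. The standard error was the absolute log2 fold change divided by the square root of F. The scripts were tested on simulated data. CPM used TMM library sizes. Shares and ratios were compared with exact two-sided permutation tests over livers, whose smallest p is 0.10. Coding sequences were aligned with MAFFT 7.526. Read sharing was counted as exact 100- and 150-base windows of M21 transcripts, and no protein sequence was used. Libraries held 13771630 to 23129576 counts, and intervals cover counting error only. The labels name separate livers but no separate cages or cohorts, so p-values measure only the spread between these samples.

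Alternatives were DESeq2 1.42.0, RLE factors, library sizes alone, no filter, limma-trend (limma 3.58.1) on log2(FPKM + 1) and log2(FPKM + 0.1), offsets for gene length, a replicate block and leaving out each liver. The text names all 8 members, each other clade A serpin of the cluster that passed the filter, the 2 most abundant and up to 3 called genes of each other list, and the 3 nearest patterns of each member. Genes named outside that rule (Socs3, Cebpb, Fga, Fgb, Fgg, Cyp7b1, Nudt7, Gm8893, B430119L08Rik, Ttr, Trf, Krt19, Krt7 and the sex-linked genes) were chosen after their values were seen. The members and lists were chosen with earlier results of these data known, and a list's count supports nothing by itself.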

Additional observations from a re-analysis of the deposited data

How the results depend on the processing

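Over 112 combinations of a member and an alternative, 102 kept the sign and the side of the threshold, 6 changed sign and 4 passed the threshold. No member was called with all 6 livers in edgeR, and 1 was called with DESeq2, with no filter on low counts and at an unadjusted p of 0.05 or less, each time Serpina3m. Leaving out 1 liver gave 0 to 1 members called, Serpina1e without HCD replicate 1 and Serpina3m without HCD replicate 2. The Serpina1d log2 fold change turned to 0.015 with log2(FPKM + 1) and with log2(FPKM + 0.1) and ran from -0.15 to 0.12 when 1 liver was left out, being positive without RD replicate 3 (0.12), HCD replicate 1 (0.099) and HCD replicate 2 (0.024). The Serpina1b value ran from -0.051 (without HCD replicate 3) to 0.20. The cause was not tested.

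When 1 liver was left out, the members' median ran from -0.33 to -0.035, the log2 ratio of the summed counts from -0.97 to -0.56 for Serpina1 and from -1.24 to -0.38 for Serpina3, and the difference in share from -46.2 to -26.9 percentage points for Serpina1e and from -15.7 to -1.98 points for Serpina3k. The values nearest to 0 were those without HCD replicate 1. The Serpina1c share differed by 7.13 points of summed FPKM against 5.17 points of counts.

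The number of genes called, 428 with 255 higher and 173 lower, was 1118 with DESeq2, 649 of 20673 with no filter, 251 with the length-trend correction, 39, 57 and 146 without RD replicate 1, 2 and 3, and 104 without HCD replicate 3. With library sizes alone it was 158 higher and 161 lower. Replicate numbers did not pair the livers, since the deviations of same-numbered livers correlated at -0.076, 0.088 and -0.041 and 1 of 3 RD livers correlated best with its own number. With the replicate block 136 genes and 0 members were called, beside 428 and 0 without it, and the Serpina1e log2 fold change was -3.16 (adjusted p = 0.343), beside -2.05.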

Other observations

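Acute phase proteins, the plasma proteins that the liver raises in inflammation, included 3 of 21 tested genes that were called higher (beside 1.95% of all genes) and none called lower. The median log2 fold change was 0.25, and 0.16 without HCD replicate 1. Orm3, an orosomucoid, rose by 2.96 on the log2 scale (SE 0.47, edgeR adjusted p = 0.0216), with 0.52 to 1.73 CPM in RD and 6.47 to 9.65 CPM in HCD livers. Cd14, a receptor for bacterial lipopolysaccharide, rose by 2.29 (SE 0.35, adjusted p = 0.0180), and Saa3, a serum amyloid A gene, rose by 2.24 (SE 0.41, adjusted p = 0.0295). These 3 genes were low in every liver, with Saa3 highest at 48.1 CPM, and all 3 were also called without HCD replicate 1. The most abundant acute phase genes, the haem and haemoglobin carriers Hpx and Hp, had log2 fold changes of 0.26 (adjusted p = 0.674) and 0.47 (adjusted p = 0.400), with overlapping diets. Without HCD replicate 1 these were 0.51 and 0.72, and Hp then lay above RD in both HCD livers (adjusted p = 0.114). The fibrinogen chains Fga (-0.77, adjusted p = 0.0715), Fgb (-0.69, adjusted p = 0.0750) and Fgg (-0.43, adjusted p = 0.248) had every HCD liver below every RD liver and were not called.

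Of 12 proteases listed as targets of these serpins or their relatives, 7 were in the table and 4 were tested. Prtn3, the neutrophil protease proteinase 3, had 32 to 58 counts in RD livers and 3, 5 and 0 counts in HCD livers (log2 fold change -3.86, SE 0.82, edgeR adjusted p = 0.0455), and was not called without HCD replicate 1 (-3.77, adjusted p = 0.0929). Plg, the precursor of plasmin, had a value of -0.38 (adjusted p = 0.212), and Klkb1, plasma prekallikrein, one of 0.36 (adjusted p = 0.248).

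No tested marker gene of these 6 cell types was called (edgeR), with or without HCD replicate 1. Kupffer cell markers had positive log2 fold changes in 7 of 7 genes tested, with a median of 0.91 (0.62 without HCD replicate 1), and stellate cell markers in 7 of 7, with a median of 0.49 (0.32). Sinusoidal endothelial markers did so in 6 of 7, with a median of 0.28 (0.11), and cholangiocyte markers in 4 of 5, with a median of 0.60 (0.46). The medians were 0.12 (0.097) for hepatocyte and 0.41 (0.39) for neutrophil markers, beside 0.0074 (-0.0069) for all genes tested. The summed Kupffer cell markers of HCD replicate 3 (154 CPM) lay within the RD range of 111 to 193 CPM. The summed stellate cell markers of HCD replicate 2 (219 CPM) lay within the RD range of 218 to 222 CPM. For the 2 most abundant genes of each list, log2 fold changes were 0.26 and -0.25 for the hepatocyte genes Alb and Apoa1, 1.21 and 0.65 for the Kupffer cell genes Cd5l and C1qa, 0.21 and 0.66 for the sinusoidal endothelial genes Clec4g and Oit3, and 0.54 and 0.31 for the stellate cell genes Dcn and Colec11. They were 0.13 and -0.01 for the cholangiocyte genes Spp1 and Sox9 and 0.74 and 0.09 for the neutrophil genes S100a9 and S100a8. Leaving out HCD replicate 1, the values were 0.25 and -0.049 for Alb and Apoa1, 0.96 and 0.36 for Cd5l and C1qa, 0.11 and 0.36 for Clec4g and Oit3, and 0.32 and 0.0096 for Dcn and Colec11. They were 0.24 and 0.21 for Spp1 and Sox9 and 0.91 and -0.13 for S100a9 and S100a8. The diets overlapped in CPM for each of these 12 genes with all 6 livers, but every HCD liver was above every RD liver for the hepatocyte genes Ttr (0.59, adjusted p = 0.143) and Trf (0.86, adjusted p = 0.0726) and the cholangiocyte genes Krt19 (1.31, adjusted p = 0.296) and Krt7 (0.63, adjusted p = 0.476). The part of these markers in the serpin values was not tested. Of the male-biased genes, the urinary protein genes Mup3 and Mup20 had 1432 and 37.1 CPM in HCD replicate 1, and at least 6092 and 2900 CPM in each other liver. Of the female-biased genes, Cyp2b9 and Cyp2b13 had 8805 and 8149 counts in HCD replicate 1 and at most 47 and 0 counts elsewhere.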
